A study of Mus musculus with 4 samples.

Results

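The histone genes of 2 mouse B-cell lymphoma lines were set beside those of 2 samples of normal B220+ splenocytes. Members were chosen by name. A gene was taken where the array names it with Hist1h, Hist2h, Hist3h or Hist4h at its start, or with H2af, H3f or H1f followed by a further character. The rule found 49 genes with 71 probes, of 27661 gene names on the array. Of these, 36 carry a cluster name and belong to the replication-dependent histones by name, and 13 are variants. Each gene was represented by the probe with its highest mean signal. The test required that probe to be well above background on at least 2 of the 4 arrays, which 47 genes met, 35 with a cluster name and 12 variants. Of the 49 genes, 44 were well above background on all arrays, and Hist1h1t and H2afy2 on none.

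DNA is wrapped around an octamer of the core histones H2A, H2B, H3 and H4, and the linker histone H1 binds where the DNA enters and leaves. The replication-dependent genes lie in clusters, are transcribed mainly while DNA is copied, and give mRNAs that end in a stem-loop in place of a poly(A) tail, although several can also give polyadenylated transcripts. Variants such as H2A.Z, H2A.X, macroH2A, H3.3 and H1.0 are encoded outside these clusters, mostly by polyadenylated mRNAs, and can be placed into chromatin outside S phase.

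The normal group was B220+ splenocytes of C57BL/6N mice, in 2 samples. B220 is a surface form of CD45 by which B cells can be selected. The lymphoma group was 2 lines, set up independently from B-cell lymphomas of mice carrying a dopamine receptor 3 transgene, with 1 array for each line. The labels give strain C57BL/6N and female sex for all 4 samples, and no age, treatment, transgene promoter or passage was given in the sources used here. The groups therefore differ at once as lymphoma and normal cells, as cultured lines and B220+ cells of the spleen, and by the mice they came from, and these cannot be told apart. The series asks how expression in the lymphomas departs from that of normal B cells. No label says that the 2 splenocyte samples came from separate animals, so the p-values cover nothing beyond the scatter of these 4 samples, and in bulk RNA fewer cells of a type cannot be told from less RNA per cell.

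Values below are scaled signals, the processed signal of a probe in multiples of the 75th percentile of its array. That percentile was 1078 and 514 for splenocytes 1 and 2 and 1122 and 1315 for lines 1 and 2. Between 25041 and 27418 of 41174 probes were well above background, and no spot was saturated. Signals of different probes are not comparable, so each probe is compared only with itself across arrays. Differences are log2 lines minus splenocytes with the SE of limma's fit over all 18305 genes tested (n = 2 against 2). A gene was called at a Benjamini-Hochberg adjusted p under 0.05. Their median over all genes was −0.05. All 7 B cell markers were well above background on every array, with Ms4a1 (CD20) at 141 and 169 in the splenocytes and 163 and 145 in the lines, while Cd79b, Pax5 and Ptprc, the gene of B220, were called lower in the lines.

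Promoter sequences are shown for 5 genes on which the results turn: the neighbours Hist3h2ba and Hist3h2a, the linker genes Hist1h1d and Hist1h1e, and the variant H2afz, of which the members of each of the first 2 pairs were called in opposite directions. Windows of 300 bases around the start site come from RefSeq on GRCm38.p6, which is not the mm8 build of the array annotation. All 49 genes were matched to RefSeq by symbol, and 41 windows, 30 of them of cluster genes, entered the motif counts. Capitals mark 4 motifs on either strand: CCAAT, the box bound by NF-Y (ATTGG on the other strand), TATAAA, the TATA box (TTTATA), ATTTGCAT, the octamer bound by POU-domain factors (ATGCAAAT), and AAACACA, an element described in H1 promoters (TGTGTTT). The motifs were searched separately, and a window counted once per motif.
Hist3h2ba, now H2bu2, chr11:58948661-58948960, + strand: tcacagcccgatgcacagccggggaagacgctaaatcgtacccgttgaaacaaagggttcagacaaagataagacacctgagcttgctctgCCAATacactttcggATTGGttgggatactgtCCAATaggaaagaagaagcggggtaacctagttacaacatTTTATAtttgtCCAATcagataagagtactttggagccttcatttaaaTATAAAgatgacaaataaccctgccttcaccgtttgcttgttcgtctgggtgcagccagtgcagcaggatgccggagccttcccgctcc
Hist3h2a, now H2aw, chr11:58954435-58954734, + strand: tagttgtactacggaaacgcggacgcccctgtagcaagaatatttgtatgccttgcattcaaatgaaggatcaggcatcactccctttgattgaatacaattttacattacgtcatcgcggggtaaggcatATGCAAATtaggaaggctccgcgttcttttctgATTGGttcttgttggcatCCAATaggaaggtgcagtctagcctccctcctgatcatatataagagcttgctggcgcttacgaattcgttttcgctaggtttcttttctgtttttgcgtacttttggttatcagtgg
Hist1h1d, now H1f3, chr13:23554782-23555081, + strand: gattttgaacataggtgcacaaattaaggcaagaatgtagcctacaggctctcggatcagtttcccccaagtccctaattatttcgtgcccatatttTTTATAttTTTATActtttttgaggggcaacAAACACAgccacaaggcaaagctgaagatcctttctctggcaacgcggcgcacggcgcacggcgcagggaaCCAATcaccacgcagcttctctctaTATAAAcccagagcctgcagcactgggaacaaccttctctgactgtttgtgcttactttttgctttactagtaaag
Hist1h1e, now H1f4, chr13:23622509-23622808, - strand: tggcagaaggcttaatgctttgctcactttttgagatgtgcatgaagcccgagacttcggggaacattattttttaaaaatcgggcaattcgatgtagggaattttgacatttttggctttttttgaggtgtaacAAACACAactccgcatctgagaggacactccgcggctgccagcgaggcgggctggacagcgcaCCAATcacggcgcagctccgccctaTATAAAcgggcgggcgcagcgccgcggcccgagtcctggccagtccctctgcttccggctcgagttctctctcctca
H2afz, now H2az1, chr3:137864237-137864536, + strand: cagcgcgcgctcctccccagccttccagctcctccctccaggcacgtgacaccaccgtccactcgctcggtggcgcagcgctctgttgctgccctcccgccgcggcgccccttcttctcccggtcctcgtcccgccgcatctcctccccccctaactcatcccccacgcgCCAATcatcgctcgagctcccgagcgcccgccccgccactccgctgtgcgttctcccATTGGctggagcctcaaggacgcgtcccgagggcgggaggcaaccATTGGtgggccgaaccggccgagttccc

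The Hist3h2ba window held CCAAT 4 times and TATAAA at 2 positions, and its neighbour Hist3h2a held CCAAT at 2 positions and the octamer once, with no TATAAA. The windows of Hist1h1d and Hist1h1e each held CCAAT and AAACACA once, and TATAAA at 3 positions and 1 position. H2afz held CCAAT at 3 positions and none of the other motifs. CCAAT was in 37.41% of all 32851 RefSeq windows, in 27 of 30 cluster genes and in 7 of 11 variants. TATAAA was in 13.62% of all windows, in 20 of 30 cluster genes and in 1 of 11 variants. The octamer was in 1.735% of all windows and in 10 of 30 cluster genes and 1 of 11 variants. The 10 were 6 of 11 H2A and 4 of 6 H2B windows of the clusters, with no H1, H3 or H4 cluster gene among them. The windows of Hist1h2aa (chr13:23934187-23934486) and Hist1h2ba (chr13:23934107-23934406) overlap on opposite strands, so a match may count for both types. AAACACA was in 7.184% of all windows and in 9 of 30 cluster genes, 5 of them among 6 H1 windows, and in 1 of 11 variants. A match is a description of the letters and not of binding.

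Histone genes moved in both directions. H2A genes, cluster genes and variants together, made up 12 of the 22 increases, and every H3 gene that was called was lower. Of the 47 tested members 22 were called higher in the lines, 9 lower, and 16 did not pass. Over all genes tested 63.3% were called, 30.6% higher and 32.6% lower, so the share of members called (31 of 47) lay close to the background. The cluster genes were called higher in 17 of 35 and lower in 7, with a median difference of 0.56. The variants were called higher in 5 of 12 and lower in 2, with a median of 0.34. With each array centred on its median, which moved the median of all genes by 0.41, these became 23 higher and 3 lower with a median of 0.97 for cluster genes, and 6 higher and 1 lower with a median of 0.75 for variants. Both lines lay above both splenocyte samples for 29 members and below both for 10, and the groups overlapped for 8; over all genes 85% did not overlap. By type, H2A cluster genes were called higher in 9 of 11 and lower in 1, and H2B in 5 of 10 and 1. The 9 H2A genes may not be separate signals. The probes of Hist1h2af and Hist1h2ai are both listed for H2ac24, and those of Hist2h2aa1 and Hist2h2ac both for H2ac18 and H2ac19. H1 cluster genes were called higher in 2 of 5 and lower in 2, H4 higher in 1 of 6, and all 3 H3 cluster genes lower. By place, the Hist1 cluster on chromosome 13 had 12 higher and 5 lower of 24, Hist2 on chromosome 3 had 4 and 1 of 7, and Hist3 on chromosome 11 had 1 and 1 of 3. The single Hist4 gene on chromosome 6 did not pass. Lower calls were fewer with other settings: the count of cluster genes called lower was 3 without splenocyte sample 2 and 4 without splenocyte sample 1 or line 1.

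**Figure D1:**
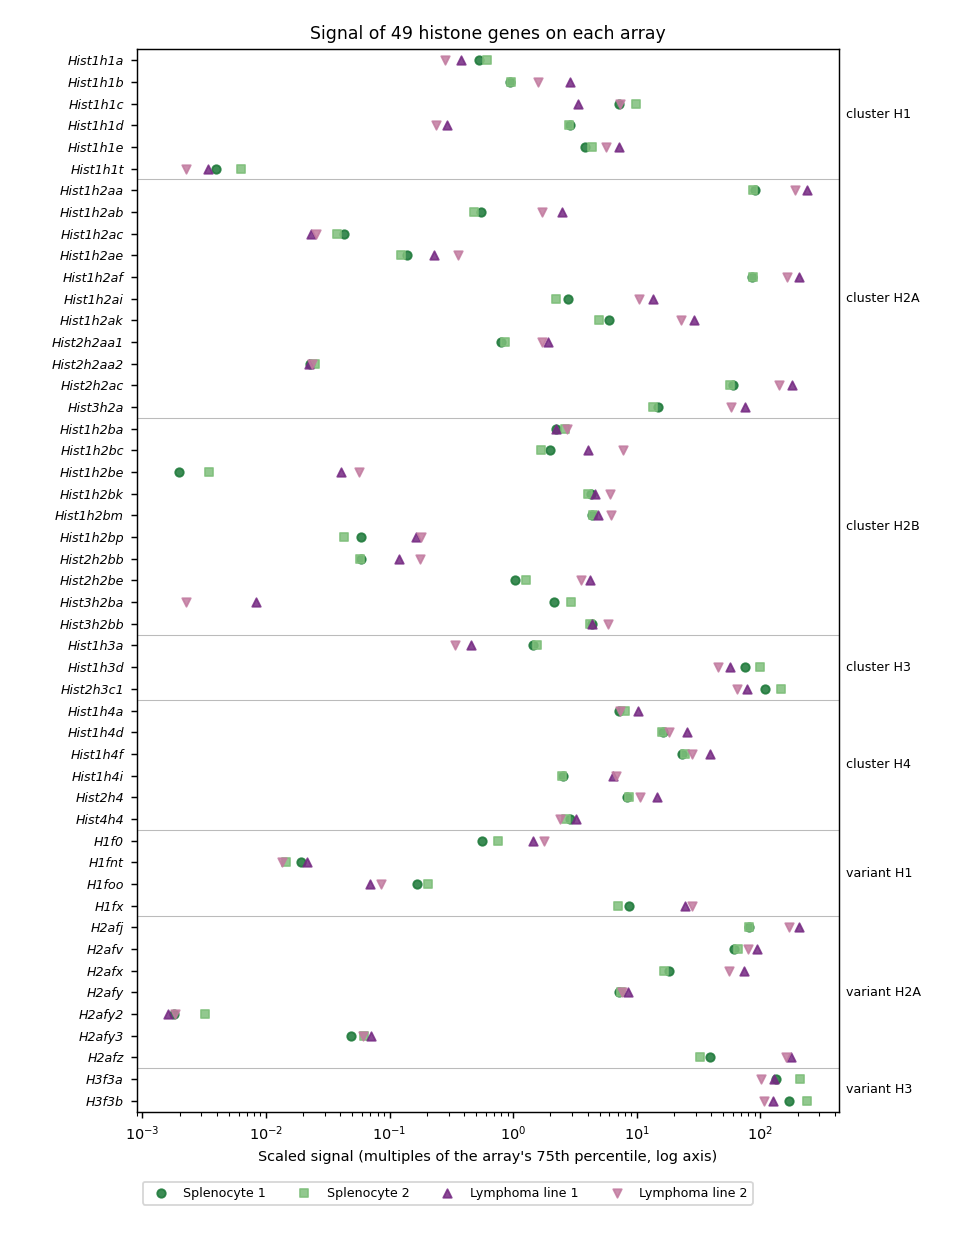
Scaled signal of the 49 histone genes on each array (log axis, multiples of the array's 75th percentile), 1 row per gene, grouped by type; each point is 1 array. Hist3h2ba lies far lower in the lines and Hist1h2be higher, each with 1 group not well above background, and points of different rows are not comparable because their probes differ.

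**Figure D2:**
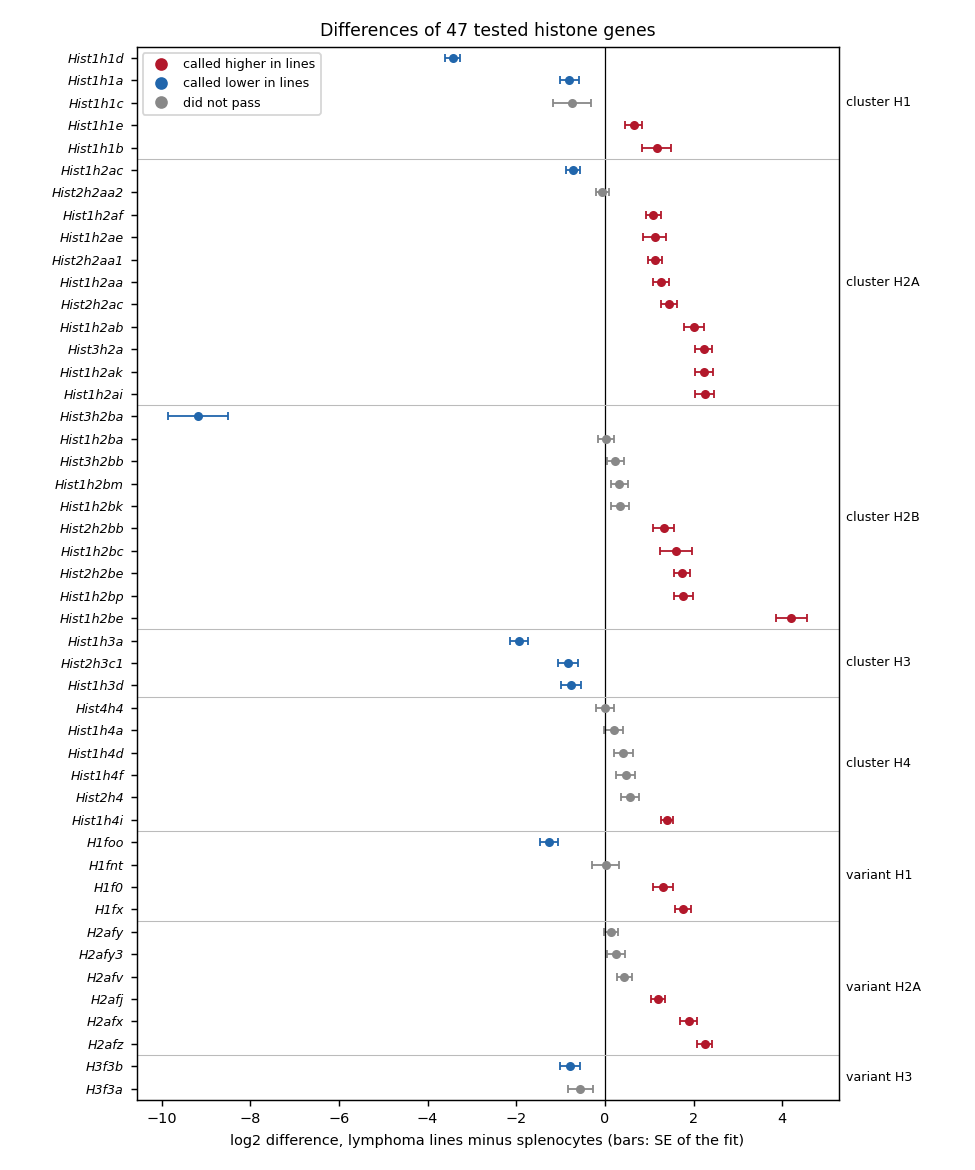
Log2 difference, lines minus splenocytes, of the 47 tested histone genes, with the SE of limma's fit as bars and colour for the call. The H2A points lie mostly to the right of 0, from −0.72 to 2.25, and all 5 H3 points, cluster and variant, lie to its left.

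**Figure D3:**
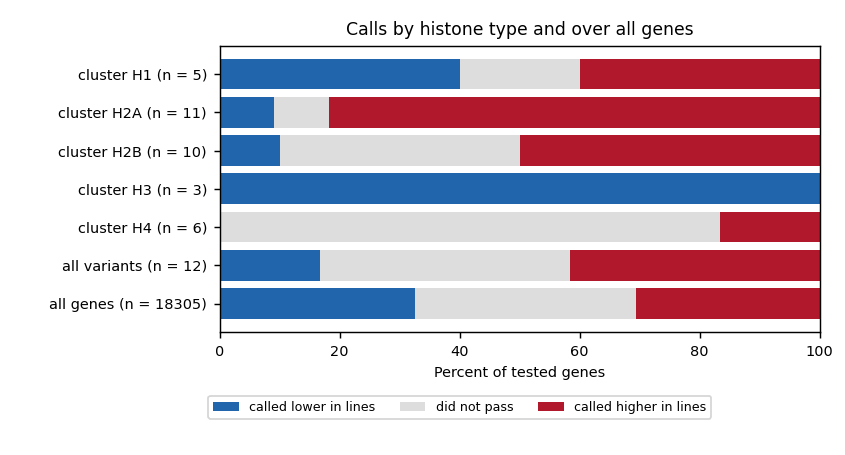
Share of tested genes (percent) called higher, called lower or not passed, for each type of cluster gene, the variants and all 18305 genes. The H2A bar is mostly higher (9 of 11) and the H3 bar wholly lower (3 of 3), but each bar rests on few genes.

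H2A was the type with the most increases. Hist1h2ai, a core H2A gene of the Hist1 cluster, had scaled signals of 2.80 and 2.24 in splenocytes 1 and 2 and 13.5 and 10.5 in lines 1 and 2. Both lines lay well above both splenocyte samples, and the difference was 2.25 ± 0.21, 4.76-fold (adjusted p = 0.00165). Its probe is listed for 4 RefSeq genes, H2ac13 and 3 other H2A genes, so the increase cannot be assigned to Hist1h2ai alone.
Hist1h2ak, whose probe (mm8, chr13:21761233-21761292) is listed for 1 gene, had 6.01 and 4.99 in the splenocytes and 29.3 and 22.8 in the lines. It was again higher in both lines, by 2.24 ± 0.20 or 4.72-fold (adjusted p = 0.00153). Hist1h2ab had 0.546 and 0.481 in the splenocytes and 2.47 and 1.73 in the lines, a 4.03-fold increase (2.01 ± 0.23; adjusted p = 0.00270). Hist3h2a had 14.8 and 13.5 against 75.1 and 58.3, which is 4.67-fold higher (2.22 ± 0.19; adjusted p = 0.00129). Its other probes did not all share this direction, as given with the probes below. The other 5 H2A genes called higher differed by 1.08 to 1.44.
Hist1h2ac was the single H2A gene called lower. It had low signals of 0.0431 and 0.0374 in the splenocytes and 0.0233 and 0.0253 in the lines, 1.65-fold lower (−0.72 ± 0.16; adjusted p = 0.0169), and the call was lost without splenocyte sample 1 (adjusted p = 0.101) or sample 2 (0.0556) and without line 1 (0.0548). Hist2h2aa2 did not pass, with −0.06 and overlapping groups.

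Among H2B genes the largest difference of all members occurred, and it was a decrease. Hist3h2ba (mm8, chr11:58765641-58765700) had 2.13 and 2.92 in the splenocytes and 0.00829 and 0.00226 in the lines. Both lines were not well above background at this probe while both splenocyte samples were, so only a bound can be given. For the bound, each dim array took the probe's own signal or the lowest signal of any probe well above background there, whichever was higher, and the bright group's mean was set against the mean of these. By that bound Hist3h2ba was at least 302-fold lower in the lines (fitted log2 difference −9.17 ± 0.67, which rests on signals below background; adjusted p = 0.000931). Its neighbour Hist3h2bb, 4.38 and 4.16 in the splenocytes and 4.34 and 5.83 in the lines, did not pass (0.24 ± 0.20; adjusted p = 0.350), and that probe is listed for the Hist3h2ba transcript as well.
Hist1h2be (chr13:23591542-23591601) had the highest fitted increase, a value that rests on signals below background, with 0.00198 and 0.00345 in the splenocytes, both not well above background, and 0.0402 and 0.0570 in the lines. It was at least 4.78-fold higher (fitted 4.20 ± 0.35; adjusted p = 0.00125), although normexp background correction reduced the fitted difference to 0.38 (adjusted p = 0.338). Hist2h2be, which is known to give polyadenylated mRNA in differentiated cells, had 1.04 and 1.27 against 4.15 and 3.56. It was higher in both lines, by 3.35-fold (1.74 ± 0.18; adjusted p = 0.00214). Hist1h2bp had 0.0592 and 0.0430 against 0.163 and 0.181, 3.40-fold higher (1.77 ± 0.21; adjusted p = 0.00309).
Hist1h2bc, another H2B gene with polyadenylated transcripts, had 1.99 and 1.69 in the splenocytes, 4.01 in line 1 and 7.68 in line 2. The groups did not overlap and the difference was 1.60 ± 0.36, 3.02-fold (adjusted p = 0.0179), but the call was lost without splenocyte sample 1 (adjusted p = 0.0503) or sample 2 (adjusted p = 0.0726). The 3 H2B members whose probes are listed for several RefSeq genes, Hist1h2bk, Hist1h2bm and Hist3h2bb, all did not pass, with 0.24 to 0.34. The other 7 were called higher in 5 and lower in 1, and the remaining gene, Hist1h2ba, had overlapping groups (0.02).

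The linker histone genes of the Hist1 cluster differed among themselves. Hist1h1d, encoding H1.3 (mm8, chr13:23563048-23563107), had 2.87 and 2.84 in the splenocytes and 0.293 and 0.237 in the lines. Both lines were far below both splenocyte samples, and the difference was −3.44 ± 0.17, 10.8-fold lower (adjusted p = 0.000392). A second, much dimmer probe of the gene, at chr13:23564799-23564858, had 0.0417 and 0.0477 against 0.0282 and 0.0879, with overlapping groups and no call (0.16 ± 0.57; adjusted p = 0.823 over probes). Hist1h1a, encoding H1.1, was 1.74-fold lower, with 0.526 and 0.609 against 0.378 and 0.280 (−0.80 ± 0.21; adjusted p = 0.0299). This call was lost without splenocyte sample 1 (adjusted p = 0.0748), sample 2 (0.134) or line 2 (0.0698).
Hist1h1c, encoding H1.2, had 7.13 and 9.81 in the splenocytes, 3.37 in line 1 and 7.36 in line 2. Line 2 lay within the splenocyte range and line 1 below it, line 2 was 2.18-fold above line 1, and the gene did not pass (−0.75 ± 0.44; adjusted p = 0.198). Without line 2 it was called lower (−1.31; adjusted p = 0.0281). The 2 linker genes called higher were Hist1h1b, encoding H1.5, with 1.17 ± 0.33 (2.25-fold; adjusted p = 0.0343), and Hist1h1e, encoding H1.4, with 0.65 ± 0.19 (1.57-fold; adjusted p = 0.0416). Hist1h1t, encoding the testis linker histone, was not well above background on any array.

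Of the 5 H3 genes, cluster genes and variants together, 4 were called lower in the lines and none higher, and in all 5 both lines lay below both splenocyte samples at the brightest probe. These differences kept their sign under each other scaling, but H3f3b turned to 0.13 as the mean over its probes. Hist1h3a (chr13:23769352-23769411), whose probe is listed for 1 gene, had 1.45 and 1.56 in the splenocytes and 0.455 and 0.335 in the lines. Both lines lay far below, by 3.85-fold (−1.94 ± 0.21; adjusted p = 0.00218). Hist2h3c1, whose probe is listed for 3 H3 genes of the Hist2 cluster, had 109 and 148 against 78.3 and 65.0, 1.78-fold lower (−0.83 ± 0.22; adjusted p = 0.0308). Hist1h3d, whose probe is listed for 4 H3 genes, had 75.8 and 100.1 against 57.1 and 45.7, 1.71-fold lower (−0.77 ± 0.22; adjusted p = 0.0375).
The smaller differences were not stable. The Hist2h3c1 call was lost without splenocyte sample 2 (adjusted p = 0.131), line 1 (0.0553) or line 2 (0.105), and that of Hist1h3d without any 1 of the 4 arrays (adjusted p from 0.0506 to 0.162). After centring each array on its median these differences were −0.42 and −0.36, and neither was called. The Hist1h3a difference stayed between −2.16 and −1.54 in all 15 alternatives and was called in each.
Very bright genes had a negative median difference as a class, which is given beside this result because 4 of the 5 H3 members are among them. Of 391 tested genes with a mean scaled signal above 50, 81 were called higher and 105 lower, and their median difference was −0.31. The 4 bright H3 members had a median of −0.78. The same 391 genes were higher in splenocyte sample 2 than in sample 1, by a median of 0.26, and the 4 H3 members by 0.46. The 10 histone members above this signal were called higher in 5 and lower in 3. Whether signal level had a part in the H3 values was not tested.

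Of 6 H4 genes 1 passed the test. Hist1h4i was called higher, with 2.54 and 2.49 against 6.40 and 6.79 (1.39 ± 0.14, 2.62-fold; adjusted p = 0.00189), although its probe is listed for no RefSeq gene. The brightest H4 probes that did not pass were those of Hist1h4f, Hist1h4d and Hist2h4. Hist1h4f had 23.4 and 24.6 in the splenocytes and 39.0 and 28.2 in the lines, 0.47 ± 0.21 (adjusted p = 0.118). Hist1h4d differed by 0.42 ± 0.21 (adjusted p = 0.155) and Hist2h4 by 0.56 ± 0.21 (adjusted p = 0.0765).
In all 3, both lines lay above both splenocyte samples, with line 1 the higher of the lines. Without line 2 each was called higher, Hist1h4f at 0.70 (adjusted p = 0.0323), Hist1h4d at 0.66 (0.0359) and Hist2h4 at 0.80 (0.0238). The probes of Hist1h4f and Hist1h4d are each listed for 4 H4 genes. A second Hist1h4d probe, listed for that gene alone, was called higher, with 2.17 and 2.39 against 6.29 and 4.32 (1.20 ± 0.23; adjusted p = 0.0113 over probes). Hist4h4 differed by 0.00 ± 0.20.

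Among the H2A variants, H2afz had the largest difference. H2afz encodes H2A.Z, which marks nucleosomes at many promoters, and its probe (chr3:137803794-137803853) had 39.3 and 32.2 in the splenocytes and 176 and 161 in the lines. Both lines were high, 4.74-fold above the splenocytes (2.25 ± 0.17; adjusted p = 0.00104). H2afx, encoding the H2A.X that is phosphorylated at DNA breaks, had 18.1 and 16.6 against 73.7 and 55.8, 3.70-fold higher (1.89 ± 0.20; adjusted p = 0.00212). H2afj, whose protein is known from senescent cells, had 81.6 and 81.5 against 204 and 172, 2.29-fold higher (1.20 ± 0.16; adjusted p = 0.00399). A second, much dimmer H2afj probe had 0.733 and 0.874 against 1.89 and 1.20 and was called higher too (0.91 ± 0.27, adjusted p = 0.0407 over probes). The profile of the brightest H2afj probe was much like those of Hist1h2aa and Hist1h2af, given below. Whether it also reads cluster H2A transcripts was not tested.
H2afv, which encodes the second H2A.Z protein, had 61.2 and 65.6 in the splenocytes and 93.4 and 78.9 in the lines. Both lines were higher, but the difference did not pass (0.44 ± 0.16; adjusted p = 0.0735). H2afy, encoding macroH2A1, had 7.12 and 7.45 against 8.54 and 7.53 and did not pass (0.14 ± 0.15; adjusted p = 0.457), and its difference was −0.02 after quantile normalization. H2afy3, at 0.25 ± 0.20, did not pass either, and H2afy2, encoding macroH2A2, was not well above background on any array.

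The H1 variants moved in both directions. H1f0, encoding H1.0, a linker histone known for its increase in resting and differentiated cells, had 0.564 and 0.749 in the splenocytes and 1.44 and 1.78 in the lines. Both lines were higher, by 2.47-fold (1.30 ± 0.22; adjusted p = 0.00780). H1fx, encoding H1.10, had 8.63 and 7.01 against 24.6 and 28.0, 3.37-fold higher at its brightest probe (1.75 ± 0.18, adjusted p = 0.00205). That probe is listed for no RefSeq gene, and the probe listed for H1fx was 9.01-fold lower, as given with the probes below. H1foo, the oocyte linker gene, had low signals of 0.166 and 0.203 against 0.0688 and 0.0852, 2.40-fold lower (−1.26 ± 0.20; adjusted p = 0.00634).
H1fnt, the spermatid linker gene, was well above background on 3 of 4 arrays and had overlapping groups (0.02 ± 0.30; adjusted p = 0.963). Its sign turned in 4 of the 14 alternatives that gave it a value. Of the other members known from germ cells, Hist1h2aa and Hist1h2ba were well above background on all 4 arrays. The former was called higher (1.26 ± 0.17, 2.40-fold, adjusted p = 0.00419) and the latter was not called. The Hist1h2aa probe, listed for 1 RefSeq gene, had 90.2 and 87.3 in the splenocytes and 237 and 192 in the lines. The profile of Hist1h2af was much alike, with 86.1 and 86.8 against 204 and 165, and its probe is listed for 2 RefSeq genes. Whether the Hist1h2aa probe also reads other H2A transcripts was not tested.

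The H3.3 genes were, like the cluster H3 genes, lower in both lines at their brightest probes. H3f3b had 170.3 and 237 in the splenocytes and 127 and 107 in the lines, 1.72-fold lower (−0.78 ± 0.23; adjusted p = 0.0380). H3f3a had 135 and 211 against 129.8 and 101.7, with no overlap but no call (−0.55 ± 0.28; adjusted p = 0.155). The H3f3b call was lost without splenocyte sample 2 (adjusted p = 0.155), line 1 (0.0685) or line 2 (0.126). It was also lost after centring each array on its median (−0.38, adjusted p = 0.257) and with no filter on dim probes (adjusted p = 0.0864). Splenocyte sample 2 was the highest of the 4 arrays for both genes.

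Several genes gave different answers at different probes, which bears on how each gene value is read. Of the 49 members 16 had several probes and 13 several tested ones. Tested probes of 7 of these 13 got different calls, and in 3 genes, H1fx, H3f3b and Hist3h2a, called probes pointed in opposite directions. Among all 6230 genes with several tested probes 8.67% had such opposite calls, and 64.8% of all tested probes were called.
For Hist3h2a, the brightest probe at chr11:58771080-58771139 rose by 2.22, while a probe at chr11:58771647-58771706, further along the chromosome, had 6.76 and 8.20 in the splenocytes and 1.55 and 1.71 in the lines. That probe, listed for the same gene, was 4.58-fold lower (−2.20 ± 0.17; adjusted p = 0.000993 over probes). Another probe, at chr11:58770911-58770970 rose by 1.29. The mean over the tested probes was 0.44 and not called (adjusted p = 0.0677).
For H1fx, the brightest probe is listed for no RefSeq gene and has no position in the files, and the probe that is listed for the gene fell. It had 0.206 and 0.105 against 0.0192 and 0.0138, 9.01-fold lower (−3.17 ± 0.39; adjusted p = 0.00291 over probes). The mean of both was −0.71 and not called (adjusted p = 0.0702). For H3f3b, a second probe at chr11:115838508-115838567 had 109 and 143 against 166 and 138 and did not pass (0.28 ± 0.21), and the remaining one at chr11:115838246-115838305 rose by 0.89 ± 0.16 (adjusted p = 0.00902 over probes). The mean over the H3f3b probes was 0.13 and not called.
Other genes had called probes of 1 direction with different sizes. Both dimmer H1f0 probes were called higher too. One of them was not well above background in either splenocyte sample and was at least 10.6-fold higher in the lines, and the other was not in 1 of them, so their sizes are not set against the 2.47-fold of the brightest probe. For H2afy, 2 further probes were called higher, by 0.51 and 0.64. All 3 H3f3a probes lay between −0.55 and −0.40 and none passed. Whether these probes read different transcripts of a gene was not tested.

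**Figure D4:**
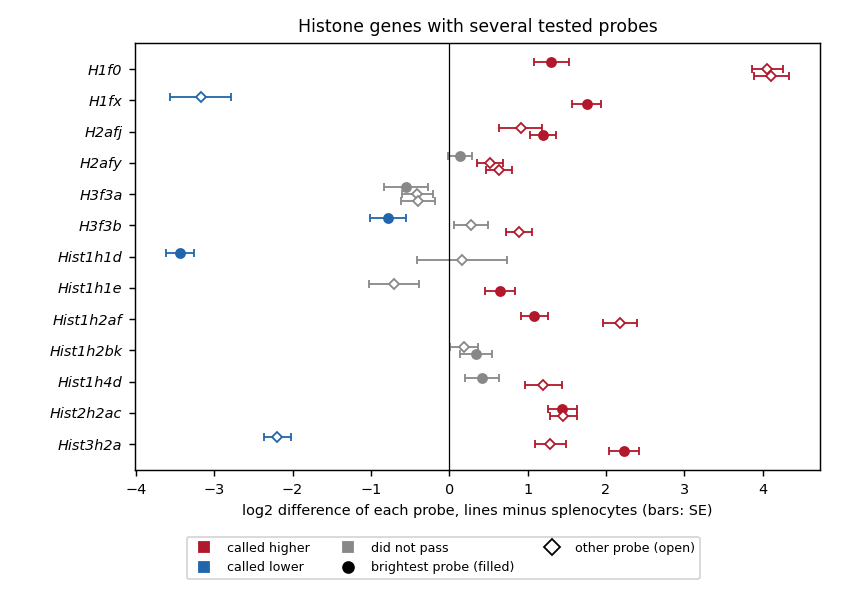
Log2 difference of every tested probe, lines minus splenocytes with SE, for the 13 histone genes with several tested probes; filled circles mark the brightest probe and open diamonds the others. H1fx, H3f3b and Hist3h2a have called probes on both sides of 0.

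Cross-hybridisation between near-identical cluster genes limits which copy a value belongs to. Of the 36 cluster genes 12 had a brightest probe listed for several RefSeq genes, 20 for 1 and 4 for none, and no probe lists more than 4 accessions, so the true number can be higher. Members with probes of several genes were called higher in 4 of 12 and lower in 2, and those with probes of 1 gene higher in 10 of 19 tested and lower in 5. Those listed for none were called higher in 3 of 4.

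Most H2B genes were higher in line 2 and most other histone genes in line 1, values that no test can be put to because each line has 1 array. H2B genes were higher in line 2 for 8 of 10 tested members, with a median log2 difference, line 2 minus line 1, of 0.39. The other tested members were higher in line 2 for 8 of 37, with a median of −0.31. Over all genes 9171 of 18305 were higher in line 1, with a median of −0.00. The tilt to line 1 was not particular to histone genes. Of the lists given below, line 1 was higher for 24 of 25 S phase genes (median −0.33), 27 of 33 chaperones (−0.24) and 19 of 22 processing genes (−0.13). The 391 genes with a mean scaled signal above 50 had a median of −0.25. Where every array was well above background, H2B was higher in line 2 for 7 of 8. Hist1h2bc was 1.92-fold higher in line 2, and Hist2h2be, at −0.22, was the exception. The probes of Hist1h2bk, Hist1h2bm and Hist3h2bb are listed for several RefSeq genes. Their ratios of line 2 to line 1 were 1.33, 1.28 and 1.34, so they may not be separate signals. The 7 H2B members with other probes were higher in line 2 for 5, with a median of 0.30. All 3 cluster H3 genes and all 6 tested H2A variants were lower in line 2, and so were 5 of 6 H4 genes. Among H1 genes the lines went both ways, since Hist1h1c was 2.18-fold higher in line 2 and Hist1h1b 1.83-fold higher in line 1. The median SD of all genes on the log2 scale was 0.116 between the splenocyte samples and 0.161 between the lines.

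**Figure D5:**
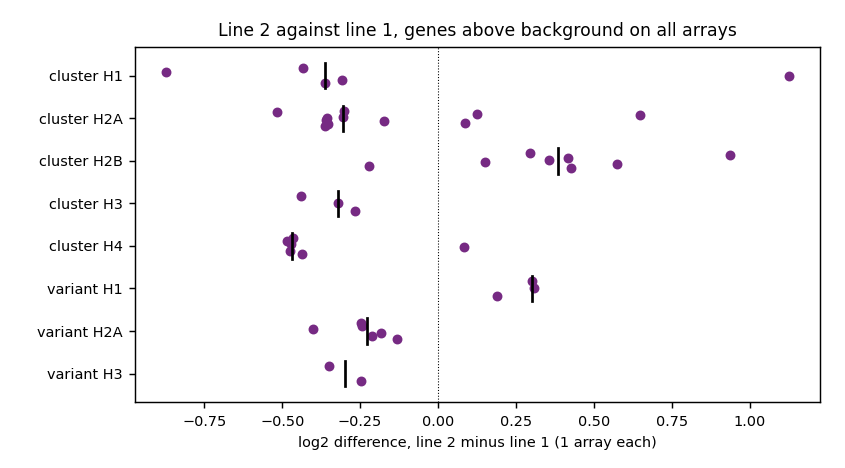
Log2 difference, line 2 minus line 1 (1 array each), of the histone genes well above background on all arrays, by type; black bars are medians. H2B has a median of 0.39 and cluster H4 one of −0.47, with Hist1h1c the point farthest to the right at 1.12.

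Genes of a list for histone mRNA transcription and processing moved in both directions, and not all of them act on histone mRNA alone. Of the 23 listed genes 22 had a probe, and 9 were called higher, 6 lower and 7 did not pass, with a median difference of 0.35. The 15 of 22 called lay near the 63.3% of all genes. Ncbp2, a subunit of the cap-binding complex, had 0.391 and 0.482 in the splenocytes and 2.51 and 2.10 in the lines, 5.28-fold higher (adjusted p = 0.00112). Srrt (Ars2), which joins the cap-binding complex to histone mRNA processing, was 2.91-fold higher. Npat, the coactivator of the histone clusters, was 2.05-fold higher, with 0.654 and 0.617 against 1.45 and 1.17 (adjusted p = 0.00755). Slbp, whose protein binds the stem-loop at the end of histone mRNAs, did not pass, with 23.6 and 22.1 against 33.6 and 27.6 (0.41 ± 0.17; adjusted p = 0.0949); it is named for its role and was chosen after its values were seen.
The largest decreases were in Zc3h12a, an RNase that degrades stem-loop mRNAs of the immune response, at 7.25-fold, and in Pcf11 and Clp1, both of the 3' end cleavage machinery, at 3.16-fold and 1.90-fold. The count of higher calls was 5 without splenocyte sample 1 and 4 without sample 2.

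Histone chaperones mostly rose or did not pass. All 33 listed genes had a tested probe, and 16 were called higher, 1 lower and 16 did not pass (median 0.55). Over all genes 30.6% were called higher and 32.6% lower. Oip5, which helps load the centromeric H3 variant, had 0.341 and 0.194 in the splenocytes and 6.87 and 5.88 in the lines, 24.7-fold higher (adjusted p = 0.000803). Chaf1a, the large subunit of the CAF-1 complex that deposits H3 and H4 behind the replication fork, was 5.59-fold higher, and Asf1b, which hands these histones to CAF-1, was 5.44-fold higher. Spty2d1, an H3-H4 chaperone of transcribed genes, was the single gene called lower, by 3.67-fold. Without splenocyte sample 2, 10 chaperones were called higher.

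DNA replication genes rose in the lines with 1 exception. Of 25 S phase genes 24 were called higher and none lower (median 1.93), against 30.6% higher over all genes. Cdc45, Cdc6 and Ccne1, which act in the firing and licensing of origins and in entry to S phase, were 10.8-fold, 8.95-fold and 6.80-fold higher. Cdt1, with 46.3 and 47.5 against 40.1 and 32.9, did not pass (−0.37 ± 0.17; adjusted p = 0.120). These genes therefore moved with the H2A increases and opposite to the H3 values in the same samples, and their part in either was not tested.

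Markers of other spleen cells were for the most part called lower in the lines, against 32.6% of all genes, which is given because the splenocyte samples may hold such cells. Sums over a list add different probes and are compared only between arrays. Of 7 markers of macrophages, monocytes and neutrophils 6 were called lower and 1, Emr1, higher. The summed scaled signal was 10.2 to 15.5 in the splenocytes and 35.4 to 35.8 in the lines. Emr1 alone had 2.13 and 1.69 in the splenocytes and 35.3 and 35.7 in the lines, so the rise of the sum is that of Emr1 and not of the other 6. Lyz2 and S100a8 were not well above background in either line. Of 6 T cell markers 4 were called lower and Cd3g higher, with sums of 13.3 to 15.1 and 7.01 to 8.67, and Thy1 not well above background in either line. Cd3g alone had 0.289 and 0.258 in the splenocytes and 5.09 and 6.15 in the lines, most of the sums there. All 3 tested NK cell markers were lower (sums of 0.542 to 0.611 and 0.0463 to 0.0614), as were 3 of 5 erythroid ones (5.74 to 5.79 and 0.945 to 2.40). Gzma and Alas2 were not well above background in either line, and Ncr1, which was not tested, was not well above background on any array. Of 5 germ cell markers Hist1h1t and Sycp3 were not well above background on any array, and none of the 3 tested was called (sums of 2.63 to 3.12 and 2.51 to 3.06). The part of these cells in the histone differences was not tested.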

How the data were processed

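Total RNA of 4 mouse samples was labelled with Cy3 and hybridised to single-colour Agilent arrays, and assigned to groups by title. Per the file headers, images were extracted with Agilent Feature Extraction 9.5.1.1 (9.5 per the submitters' processing notes), with mm8 annotation. The deposited processed signal is an intensity, corrected for background and not normalized between arrays; the deposited raw means and background medians are likewise intensity values. The remaining columns hold, per the file headers, flags of 0 or 1 (above background, saturated, outlier). The deposited series matrix equals the processed intensity times 1 factor per array (1, 2.10, 0.961 and 0.820, within 0.5%), a scaling read from the values. The labelling primer was not given in the sources used here, so levels of stem-loop and polyadenylated mRNAs were not set against each other. For the same reason, whether the value of a cluster gene reads stem-loop mRNA, polyadenylated transcripts or both is not known.

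Of 43379 non-control spots 403 flagged as outliers on any array were left out, spots of a probe were averaged, and each array's 75th percentile was subtracted on the log2 scale. The groups were tested in limma 3.58.1 (two-sided, lmFit then eBayes; R 4.3.3, data.table package 1.17.8) and adjusted by Benjamini-Hochberg over all 18305 genes or, for single probes, all 27402 probes. Named were all variants, the 8 largest increases and decreases of cluster genes, the 3 brightest not passed, Hist1h1c, Hist1h2bc, Hist2h2be, and the 3 largest called changes in each direction of each list; other names were chosen after their values were seen. The members and lists were chosen with earlier results of these data known. Deviations from the group means correlated at 0.0135 between arrays of the same number, so the numbers were taken not to pair the samples. There was 1 slide and 1 scan time. Alternatives were 3 other scalings, normexp background (offset 50), the matrix values, other filters, probe means, flagged spots kept, a variance trend, a replicate block and each array left out. The number of arrays limits the precision.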

Additional observations from a re-analysis of the deposited data

How the results depend on the processing

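Of 44 named genes, 26 kept their direction and side of the threshold in every alternative that gave them a value, among them Hist3h2ba, Hist1h1d, Hist1h3a, Hist1h2ai, Hist1h2ak, Hist2h2be, H2afz and H2afx. The counts of lower calls were the least stable. Cluster genes called lower (7) were 3 after median centring, 3 with no filter on dim probes and 3 to 5 with an array left out. Variants called lower (2) were 1 after median centring, 1 with no filter, 1 as the mean over probes and 1 to 2 with an array left out. In the processing list, lower calls (6) were 2 after median centring, and higher calls (9) were 4 with no filter and 4 to 9 with an array left out. Chaperones called lower (1) were 3 after quantile normalization and 2 both with the percentile over probes bright on all arrays and as the mean over probes, and those called higher (16) were 10 to 15 with an array left out. S phase genes called lower (0) were 1 after quantile normalization. With the replicate block, whose pairing the data did not bear out, 4 cluster genes, 1 variant and 2 chaperones were called lower; H3f3b, Hist2h3c1, Hist1h1a and Hist1h3d lost their calls under it (adjusted p = 0.0543 to 0.0690). Signs turned for H1fnt (−0.11 with the percentile over bright probes, −0.49 with normexp, −0.18 without splenocyte sample 2, −0.32 without line 1), H1fx (−0.71) and H3f3b (0.13) as means over probes, H2afy (−0.022 with quantile normalization) and H2afy3 (−0.23, normexp). The median of all genes turned from −0.05 to 0.10 with quantile normalization and 0.36 with median centring. The latter moved it by 0.41, and 63.2% of its calls were higher, against 48.4% in the main setting. Testing without a filter on dim probes moved it by −0.34, normexp by −0.26, the percentile over bright probes by −0.13 and quantile normalization by 0.14. With an array left out, the lone array is taken to vary like the other group. The cause of these changes was not tested. Dim probes (Hist1h2be, Hist3h2ba, H1fnt) are limited by background.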
